A study of Mus musculus with 12 samples.

Results

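Spleen RNA of female mice aged 24-28 weeks was compared with that of female mice aged 6-9 weeks on Affymetrix expression arrays. The members are the arrays whose titles carry the female sign with one of these ages, which gives 4 of the 12 arrays of the study, 2 at each age. The study profiled total RNA from spleens of both sexes before, around and after puberty, and its other arrays are 2 of females at 3-4 weeks and 2 of males at each of the 3 ages. The labels give the sex, the age and the tissue, and no strain, genotype or treatment, so nothing further is known of the animals or of what the groups share. The labels do not say whether arrays a and b of a group hold RNA of different animals, and every p-value below reflects only how far such a pair differs, which can be technical.

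The spleen filters blood and holds lymphoid tissue. Its white pulp is made of B cell follicles and T cell zones, and its red pulp holds macrophages that clear old red cells, plasma cells that secrete antibody and, in mice, islands in which red cells, granulocytes and platelets are made. A stroma of fibroblasts and collagen, with blood vessels and sinuses, carries these compartments. In whole tissue, fewer cells of a type and less RNA per cell cannot be told apart.

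The labels were checked against defining genes. Xist, the RNA that silences an X chromosome in females, gave scaled signals of 386 and 333 at 6-9 weeks and 239 and 211 at 24-28 weeks in females, against 7.49 to 88.2 in males. Eif2s3y, a Y-linked translation factor gene, gave 24.5 to 57.6 in females and at least 658 in males. Both separated the sexes as labelled. Cd79a and Cd3d, parts of the B cell and T cell receptor complexes, were bright on all 4 arrays, so the lymphoid markers of a spleen were present. The red cell markers Alas2 and Klf1 were also bright.

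All signals here are the deposited array intensities rescaled to 1 common mean per array. Differences are on the log2 scale after 32 was added, which understates the change of dim genes, and are given as 24-28 minus 6-9 weeks with their standard error (SE). Adjusted p-values are limma's, after Benjamini-Hochberg correction for all probe sets tested. A gene is said to rise or fall where its adjusted p was under 0.05, and a gene with several probe sets is represented by the brightest. Its other probe sets can give a different result and are mentioned for some genes only.

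The 4 arrays split by age. Arrays a and b correlated across probe sets at r = 0.97 at 6-9 weeks and 0.967 at 24-28 weeks, and arrays of different age at 0.926 to 0.934. The beta-actin control probe sets, whose 3' to 5' ratio reflects RNA quality, gave a ratio of 0.574 and 0.738 at 6-9 weeks and 1.36 and 1.23 at 24-28 weeks. That of the transferrin receptor control was 5.16 and 4.15 against 7.63 and 10, while that of Gapdh was 1.87 and 1.91 against 1.63 and 1.82. None of the 3 ratios overlapped between the ages, so in these arrays the ratio and the age cannot be told apart, and its part in the differences was not tested.

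Of 8926 probe sets tested, 1981 (22.2%) changed between 6-9 and 24-28 weeks, 746 (8.36%) upward and 1235 (13.8%) downward. Counted as genes, 534 of 6539 (8.17%) rose and 1016 (15.5%) fell, and the median difference over these genes was −0.09. The counts of list members that rose or fell in females, given below, are read beside these shares. The falls were more numerous and the largest changes were mostly rises. Differences of at least 1 log2 unit numbered 183 upward and 325 downward, while those of at least 2 numbered 32 upward and 16 downward. The 4 arrays of the ages did not overlap for 25.4% of probe sets upward and 36.4% downward, and such separation alone is therefore common here. The count of calls was 1162 without replicate b at 6-9 weeks and 1247 without replicate a. With each array centred on its median, which moved all differences up by 0.13, the split was 1073 higher and 781 lower, against 746 and 1235.

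**Figure D1:**
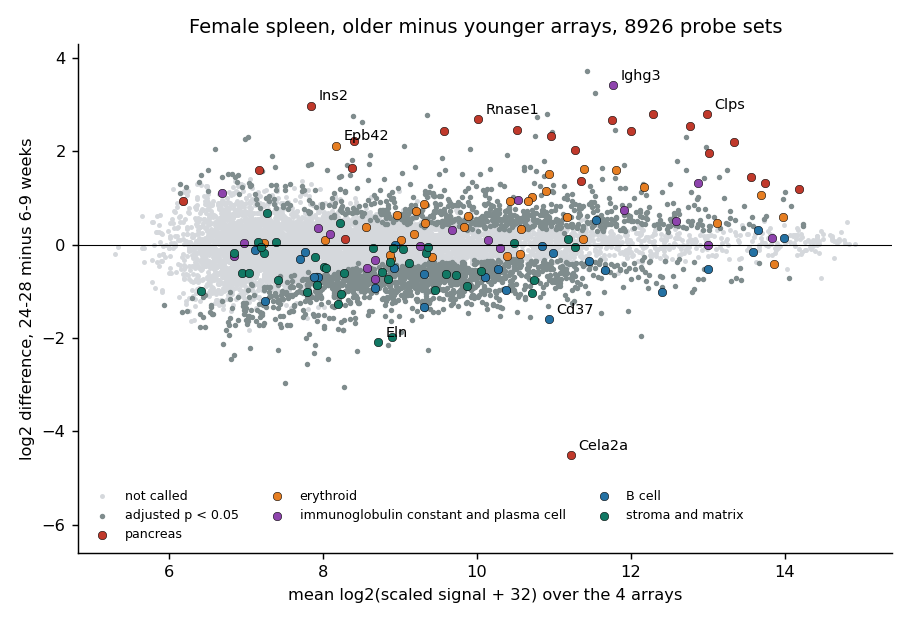
Log2 difference between 24-28 and 6-9 weeks in females (vertical) against mean log2 signal over the 4 arrays (horizontal). Each point is 1 of 8926 probe sets, dark where the adjusted p was under 0.05, and coloured points are members of 5 gene lists. Pancreas genes lie highest together with Ighg3, Cela2a lies lowest, and most B cell and stroma genes lie below 0.

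Genes of the pancreas made up most of the largest rises. Acinar cells of the pancreas secrete digestive enzymes and its islets secrete hormones. Of 40 pancreas genes listed, 23 could be tested, and 20 rose, 1 fell and 2 were not called. The median difference was 2.19, against −0.09 over all genes. Together these genes held 0.748% and 0.691% of the summed signal at 6-9 weeks and 2.13% and 2.15% at 24-28 weeks, against 0.922% and 0.913% in females at 3-4 weeks. These genes were listed for another organ than the labelled one, and where their transcripts came from was not tested. Their part in the other differences was not tested beyond the scaling. Scaling the arrays without the pancreas, immunoglobulin and erythroid lists gave 1934 calls, of which 1854 were shared with the 1981.

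Clps, colipase, the cofactor of pancreatic lipase, gave signals of 3312 and 2815 at 6-9 weeks and 21616 and 21444 at 24-28 weeks. The older arrays lay far above the younger ones, by 2.80 (SE 0.14, adjusted p = 2.14e-07). Ins2, 1 of the insulin genes of the islets, gave 39.4 and 61.9 at 6-9 weeks and 581 and 652 at 24-28 weeks (log2 difference 2.98, SE 0.25, adjusted p = 1.39e-05). It was thus among the dimmest genes of the younger arrays, and its probe set may also match related transcripts. Reg2, a regenerating protein secreted by acinar cells, went from 1769 and 1946 to 13136 and 13127 (2.80, SE 0.13, adjusted p = 1.42e-07). Rnase1, the pancreatic ribonuclease, went from 396 and 356 to 2585 and 2619 (2.69, SE 0.21, adjusted p = 5.97e-06).

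Other secreted products of acinar cells rose alike. Pnliprp1, a lipase-related protein, rose by 2.67, Zg16, a zymogen granule protein, by 2.54, and Sycn, syncollin, also of the zymogen granule, by 2.45. Reg3b and Reg3a, antimicrobial lectins of the Reg family, rose by 2.44 each. The kallikrein genes Klk1 (2.33) and Klk1b1 (2.42), of which the second is on no list, rose by nearly the same amount, and their probe sets can each match other kallikreins. Tff2, a trefoil peptide on no list, rose by 2.45. Prss2, a trypsinogen, gave 8946 and 8276 at 6-9 weeks and 21256 and 22002 at 24-28 weeks (1.33, SE 0.18), and Cela1, an elastase, 7291 and 7347 against 21070 and 18963 (1.45, SE 0.12). The rises of the brightest enzymes were smaller than those of Clps or Reg2.

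The promoters of members that moved together are shown with the short motifs searched in them. RefSeq promoter windows of GRCm38.p6, from 250 bases before to 50 after the start of a gene, were found for 16 of the 20 pancreas genes that rose. CACCTG, an E-box letter string of the acinar factor PTF1, stood on either strand in 9 of the 16 (56.2%), against 22.6% of 27025 genes with a window. TATAAA, the TATA box, stood in 6 (37.5%), against 15.7%. TTTCCC, a second PTF1 string, stood in 6 (37.5%), against 27.9%. In the windows printed no match of CACCTG overlaps one of TATAAA, and a match describes letters and is no sign of binding. The windows of Klk1 (chr7:44225110-44225409, plus strand) and Reg3b (chr6:78370635-78370934, plus strand), the members with the smallest p-values whose window holds the E-box string, are printed 5′ to 3′ with CACCTG or its reverse complement and TATAAA in capitals.
Klk1: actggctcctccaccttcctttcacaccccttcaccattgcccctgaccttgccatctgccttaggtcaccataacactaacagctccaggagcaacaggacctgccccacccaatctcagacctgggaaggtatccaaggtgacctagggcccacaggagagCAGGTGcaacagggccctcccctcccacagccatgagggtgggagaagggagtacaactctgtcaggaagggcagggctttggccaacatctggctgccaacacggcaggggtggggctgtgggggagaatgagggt
Reg3b: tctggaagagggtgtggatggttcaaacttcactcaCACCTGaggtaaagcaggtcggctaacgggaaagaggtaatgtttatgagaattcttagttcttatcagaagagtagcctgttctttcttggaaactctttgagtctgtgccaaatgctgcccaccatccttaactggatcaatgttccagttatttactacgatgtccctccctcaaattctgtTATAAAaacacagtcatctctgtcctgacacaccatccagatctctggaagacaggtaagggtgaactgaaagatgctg

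Cela2a, a pancreatic elastase, moved against the rest of its list. It gave 12020 and 10825 at 6-9 weeks and 228 and 939 at 24-28 weeks, a fall of 4.51 on the log2 scale (SE 0.63, adjusted p = 0.000456), the largest in either direction among genes that passed. The arrays did not overlap, and females at 3-4 weeks lay between, at 4732 and 3239. The gene has 1 probe set, so no second one could be set beside it, and its 2 arrays at 24-28 weeks differed more from each other than those of Clps or Reg2. Its promoter window (chr4:141825956-141826255, minus strand) is shown because it also holds the E-box string. That string stood in 9 of the 16 windows of pancreas genes that rose and in 22.6% of all genes.
Cela2a: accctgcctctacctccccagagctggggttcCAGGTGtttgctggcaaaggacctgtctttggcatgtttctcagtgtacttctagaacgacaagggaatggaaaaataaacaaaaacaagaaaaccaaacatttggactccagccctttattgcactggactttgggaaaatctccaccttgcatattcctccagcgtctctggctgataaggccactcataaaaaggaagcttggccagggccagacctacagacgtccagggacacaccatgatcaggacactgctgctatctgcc

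Some antibody transcripts also rose. Of 19 tested genes of antibody constant regions and plasma cells, 5 rose and 1 fell, with a median of 0.15, so the list held a few large rises among genes that were mostly not called. Ighg3, the constant region of IgG3, gave 1060 and 1016 at 6-9 weeks and 10939 and 11930 at 24-28 weeks. This was the largest rise of all genes, 3.42 (SE 0.1, adjusted p = 5.56e-09). All 6 of its probe sets rose, by 0.86 to 3.72, and some of them can match other antibody genes.

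Jchain, which joins the units of IgM and IgA, gave 4783 and 4670 at 6-9 weeks and 11966 and 11653 at 24-28 weeks (1.32, SE 0.11, adjusted p = 1.66e-05). Igha, the constant region of IgA, gave 5152 and 5101 against 7048 and 7598, a smaller rise of 0.51 (SE 0.09, adjusted p = 0.00193) that did not pass with quantile normalization (adjusted p = 0.107). Sec61b, a subunit of the channel through which secreted proteins enter the endoplasmic reticulum, rose by 0.75, and Dnajb9, a chaperone of that compartment, by 0.95. Irf4, a factor of plasma cells and activated lymphocytes, fell by 0.73, a call lost without replicate a at 6-9 weeks (adjusted p = 0.0947) or at 24-28 weeks (adjusted p = 0.0782). Igkv8-30, a light chain variable segment, rose by 3.24 (SE 0.12), from 930 and 932 to 9160 and 9030. Its probe set can match other variable segments.

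Ighm, the constant region of IgM, gave no single answer. Its brightest probe set gave 12102 and 15726 at 6-9 weeks and 16226 and 14444 at 24-28 weeks and was not called (0.15, adjusted p = 0.551). Of its 11 probe sets, 1 fell by 1.02 and 1 rose by 2.79, and several of the others also rose. The probe sets of this symbol therefore disagree in direction, and no direction is given for the gene.

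Genes of red cell formation rose together. Of 32 tested erythroid genes, 20 rose, 0 fell and 12 were not called, with a median of 0.53, and they held 0.807% and 0.839% of the summed signal at 6-9 weeks and 1.18% on each array at 24-28 weeks. Without replicate b at 24-28 weeks 13 rose. Epb42, a protein of the red cell membrane skeleton, gave 125 and 89.3 at 6-9 weeks and 578 and 562 at 24-28 weeks (2.12, SE 0.16, adjusted p = 5.19e-06). Alas2, the first enzyme of haem synthesis in red cells, gave 3107 and 2839 against 6758 and 7314 (1.23, SE 0.09, adjusted p = 5.77e-06). Both pairs of older arrays lay above both pairs of younger ones.

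Further enzymes and nuclear and membrane proteins of red cell precursors followed. Bpgm, which makes the metabolite that lowers the oxygen affinity of haemoglobin, rose by 1.61, Urod, a haem synthesis enzyme, by 1.51, Hemgn, a nuclear protein of erythroid precursors, by 1.62, and Rhd, a blood group membrane protein, by 1.16. The transcription factors that define the lineage were not called. Gata1 gave 412 and 529 at 6-9 weeks and 521 and 486 at 24-28 weeks (0.10, adjusted p = 0.742). Klf1 gave 1497 and 1378 against 1286 and 1126 (−0.25, adjusted p = 0.403). The probe set of Hba-a1, an alpha globin, ranged from 12.7 to 19433 over the female arrays and differed widely between arrays a and b of several groups (−0.42, SE 1.02), so it gives no usable level.

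Erythroid levels at 24-28 weeks lay between those of the younger ages. Against females at 3-4 weeks, 20 of the 32 genes were lower at 24-28 weeks and 1 was higher. Alas2 gave 11221 and 11353 and Rhd 5268 and 5661 at 3-4 weeks, above all 4 older arrays. Over all probe sets, 1417 (15.9%) differed between 24-28 and 3-4 weeks, 587 higher (6.58%) and 830 lower (9.3%). That count was 837 without replicate a and 856 without replicate b at 3-4 weeks, and 908 without replicate b at 24-28 weeks. This comparison shares the 24-28 week arrays with the first, so the values are given side by side only. List counts against 3-4 weeks, here and below, are read beside the 6.58% higher and 9.3% lower.

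Promoter windows were found for 13 of the 20 erythroid genes that rose. AGATAA, a string bound by GATA factors, stood on either strand in 5 (38.5%), against 12.7% of all genes, and CCACCC, a string of KLF1, in 4 (30.8%), against 34% of all genes. The windows of Epb42 (chr2:121036828-121037127, minus strand) and Alas2 (chrX:150547167-150547466, plus strand), the members with the smallest p-values whose window holds AGATAA, are printed with each match of these strings or their reverse complements in capitals. The window of Epb42 holds a match of AGATAA alone. In Alas2 the second run of capitals holds 3 CCACCC matches on the minus strand, each sharing a letter with the next.
Epb42: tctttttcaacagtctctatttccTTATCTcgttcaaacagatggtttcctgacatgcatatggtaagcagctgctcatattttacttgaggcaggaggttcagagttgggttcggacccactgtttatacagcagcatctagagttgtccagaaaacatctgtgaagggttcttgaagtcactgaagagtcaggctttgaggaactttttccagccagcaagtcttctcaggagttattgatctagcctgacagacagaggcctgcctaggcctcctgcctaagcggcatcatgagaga
Alas2: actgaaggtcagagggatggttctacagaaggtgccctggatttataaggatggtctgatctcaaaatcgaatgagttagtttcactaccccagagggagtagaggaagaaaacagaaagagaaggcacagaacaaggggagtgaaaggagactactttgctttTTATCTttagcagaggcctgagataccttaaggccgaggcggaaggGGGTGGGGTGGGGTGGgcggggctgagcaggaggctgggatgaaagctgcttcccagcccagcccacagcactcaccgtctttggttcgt

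**Figure D2:**
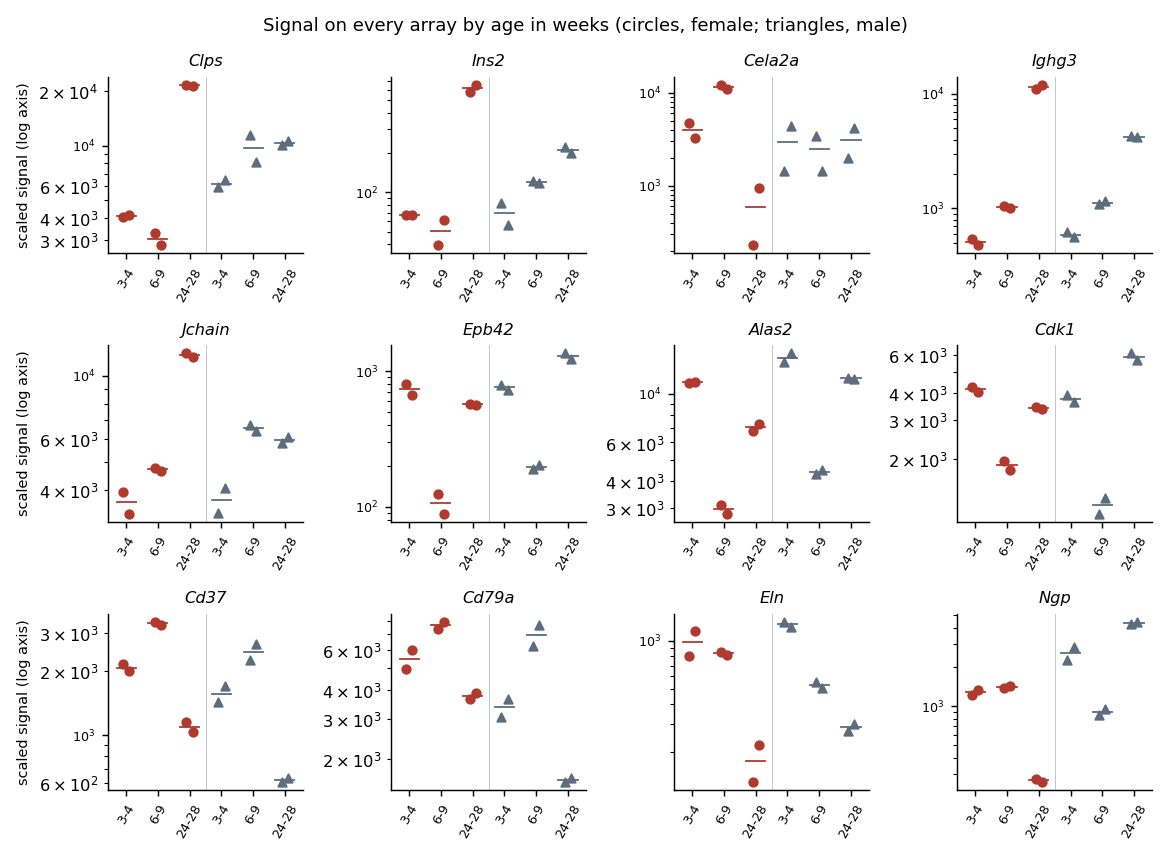
Scaled signal on a log axis of 12 genes on every array, by age in weeks, with circles for females and triangles for males; short lines are means of 2 arrays. In females Clps, Ins2, Ighg3 and Jchain are highest at 24-28 weeks and Cela2a, Cd37, Eln and Ngp lowest, while Epb42, Alas2 and Cdk1 are lowest at 6-9 weeks.

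Genes of cell division rose in part. Of 81 tested cell cycle genes, 22 rose, 4 fell and 55 were not called, with a median of 0.16, and 14 rose without replicate b at 24-28 weeks. Cdk1, the kinase that drives entry into mitosis, gave 1960 and 1774 at 6-9 weeks and 3448 and 3373 at 24-28 weeks (0.86, SE 0.1, adjusted p = 0.000155). Gmnn, geminin, which blocks a second round of replication, gave 672 and 578 against 1676 and 1401 (1.26, SE 0.12, adjusted p = 3.39e-05). Mad2l1, of the spindle checkpoint, rose by 0.97, Birc5, survivin, by 0.94, Ccne2, cyclin E2, by 1.67, and Prim1, a primase subunit, by 1.13.

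The proliferation markers Mki67 and Top2a did not pass. Mki67 gave 267 and 210 at 6-9 weeks and 346 and 275 at 24-28 weeks (0.34, adjusted p = 0.147), and Top2a, a topoisomerase, 732 and 647 against 535 and 585 (−0.28, adjusted p = 0.155). Both were above these levels at 3-4 weeks, at 739 and 789 for Mki67 and 1091 and 1273 for Top2a. The genes that fell, chosen for mention after their values were seen, were Rrm1, a ribonucleotide reductase subunit (−0.89), the mitotic kinase Plk1 (−0.58), the checkpoint gene Bub3 (−0.39) and the methyltransferase Dnmt1 (−0.50). Without replicate a at 24-28 weeks the calls of Plk1 (adjusted p = 0.059), Bub3 (0.0732) and Dnmt1 (0.147) were lost, as were Plk1 without replicate a (0.0877) and Bub3 and Dnmt1 without replicate b (0.085 and 0.125) at 6-9 weeks. Against 3-4 weeks, 43 of the 81 genes were lower at 24-28 weeks and 0 were higher. H2az1 and H1f2, the 2 genes that rose of 18 tested for DNA repair and histones, rose by 0.45 and 0.51, and 0 of the 18 fell. Both calls were lost without replicate b at 6-9 weeks (adjusted p = 0.12 and 0.261) or replicate a at 24-28 weeks (0.106 and 0.291), and H1f2 also without replicate a at 6-9 weeks (0.0541).

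**Figure D3:**
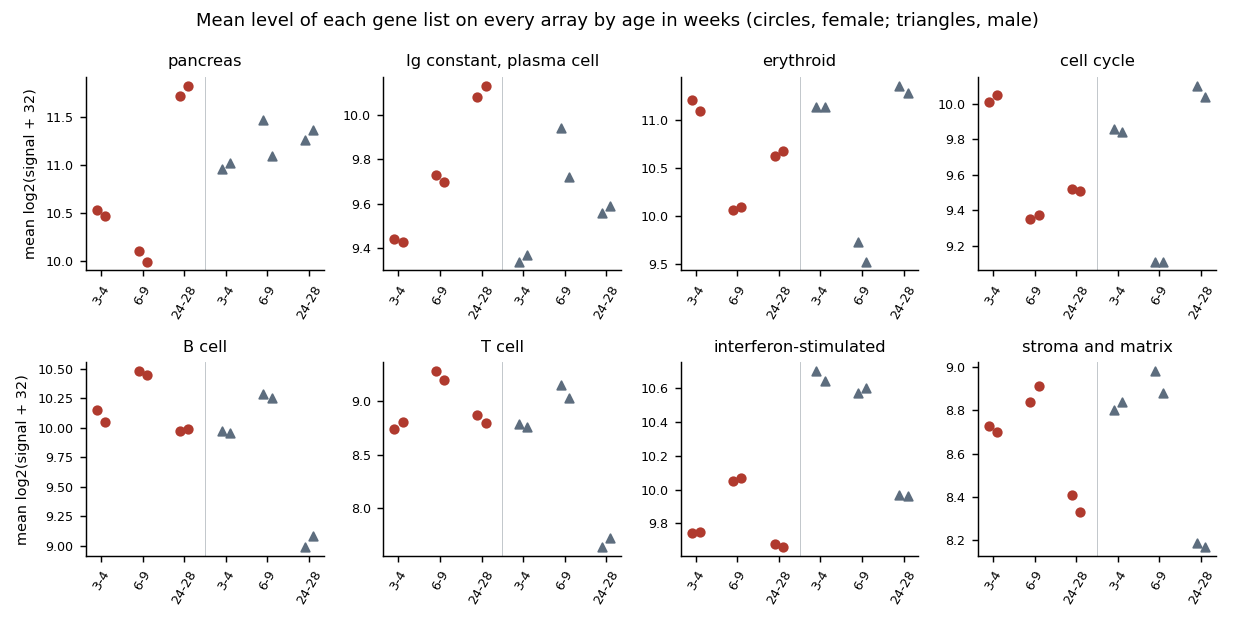
Mean log2(signal + 32) over the tested members of 8 gene lists on each of the 12 arrays, by age in weeks, with circles for females and triangles for males. In females the pancreas list went from 10.1 and 9.99 at 6-9 weeks to 11.72 and 11.82 at 24-28 weeks and the B cell list from 10.48 and 10.45 to 9.97 and 9.99.

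B cell genes fell. Of 25 tested, 13 fell, 1 rose and 11 were not called, with a median of −0.53, and 8 fell without replicate b at 6-9 weeks or without replicate a at 24-28 weeks. Cd37, a tetraspanin of mature B cells, gave 3402 and 3292 at 6-9 weeks and 1157 and 1035 at 24-28 weeks (−1.59, SE 0.11, adjusted p = 4.14e-06). Cd79a, the signalling chain of the B cell receptor, gave 7414 and 7965 against 3647 and 3893 (−1.02, SE 0.13, adjusted p = 0.000251). Neither gene overlapped between the ages. Spib (−0.97) and Pou2af1 (−0.70), transcription regulators of B cells, and Cd22 (−0.62), an inhibitory receptor, also fell. The single rise, named after its value was seen, was Cd83, a surface protein of activated B cells and dendritic cells (0.53, adjusted p = 0.0301), whose call was lost without any 1 of the 4 arrays (adjusted p of 0.0649 to 0.166).

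Some T cell genes fell. Of 24 tested, 7 fell, 1 rose and 16 were not called, with a median of −0.46, and 4 fell without replicate a at 6-9 weeks. Satb1, a chromatin organiser of T cells, fell by 1.25 (SE 0.18), Il7r, the receptor for the survival factor IL-7, by 1.15 (SE 0.19), Thy1, a surface glycoprotein, by 0.88 and Cd8a, the coreceptor of cytotoxic T cells, by 0.65. The chains of the receptor complex moved apart. Cd3d gave 1120 and 977 at 6-9 weeks and 1597 and 1618 at 24-28 weeks, a rise of 0.60 (SE 0.11, adjusted p = 0.00231), while Cd3e gave 845 and 734 against 615 and 489 and was not called (−0.50, adjusted p = 0.145).

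In the genes of killer cells and of antigen presentation, few members moved. Of 16 tested NK and cytotoxic genes, 3 (18.8%) fell and 0 rose, with a median of −0.05, near the 15.5% of all genes that fell. They were the chemokine Ccl5 (−0.80), the granzyme Gzma (−0.69) and perforin, Prf1 (−1.0), of which Gzma was lost without replicate b at 6-9 weeks (adjusted p = 0.0726) and Prf1 without any 1 of the 4 arrays (adjusted p of 0.0605 to 0.279) or with the replicate block (adjusted p = 0.0544). Of 10 tested MHC class II genes, 3 fell and 0 rose, with a median of −0.03. They were Ciita, the master regulator of the class (−0.84), H2-Oa, a modulator of peptide loading (−0.69), and Cd74, the invariant chain (−0.71), whose signal went from 21309 and 22284 to 12792 and 13894. Each of these calls was lost without replicate b at 6-9 weeks (adjusted p = 0.0683, 0.0726 and 0.135), Ciita also without replicate b at 24-28 weeks (0.0759) and Cd74 without any 1 array (0.0837 to 0.14). Against 3-4 weeks, 5 of the 10 were higher at 24-28 weeks and 0 were lower.

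Genes of the innate cells of the red pulp were mostly not called, and those that moved mainly fell. Of 24 macrophage and monocyte genes tested, 7 fell and 0 rose, with a median of −0.21. Ccr2, the chemokine receptor of inflammatory monocytes, fell by 1.18, Csf1r, the receptor of the macrophage growth factor, by 1.28, the endotoxin coreceptor Cd14 by 0.59 and Marco, a scavenger receptor of marginal zone macrophages, by 1.63. Csf1r gave 1926 and 1700 at 6-9 weeks and 703 and 749 at 24-28 weeks, without overlap (SE 0.19, adjusted p = 0.000608). Its second, dimmer probe set gave 0.04 and was not called (adjusted p = 0.944). The brightest probe set of Vcam1, an adhesion molecule, fell by 0.69, while its other probe sets gave 0.48, which passed, and −0.01, so the probe sets disagree. Of 15 dendritic cell genes, 3 fell and 1 rose, with a median of −0.07. Cd86, a costimulatory ligand, rose by 0.72, from 1533 and 1503 to 2525 on each array, the factors Irf8 and Tcf4 fell by 0.44 and 1.11, and the integrin Itgax fell by 0.47, a call lost without any 1 array (adjusted p of 0.0651 to 0.115).

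Neutrophil granule genes gave 7 falls and 1 rise of 25 tested, with a median of −0.23, and 3 falls without replicate a at 6-9 weeks. Ngp, a granule protein of developing neutrophils, gave 1376 and 1426 at 6-9 weeks and 275 and 261 at 24-28 weeks, a fall of 2.26 on the log2 scale (SE 0.12, adjusted p = 2.47e-07). Ltf, lactoferrin, gave 485 and 478 against 249 on each array (−0.87, SE 0.11), and Hp, haptoglobin, fell by 0.66. The granule markers Elane, Camp and S100a8 were not called. Elane, neutrophil elastase, gave 574 and 722 against 550 and 575 (−0.19, adjusted p = 0.323), Camp, the cathelicidin, 4273 and 4392 against 4444 and 4791 (0.09, adjusted p = 0.587), and S100a8 7299 and 7180 against 6200 and 6850 (−0.15, adjusted p = 0.555). Prtn3, a granule protease, fell by 0.40, a call lost without any 1 array (adjusted p of 0.0906 to 0.165). Lyz2, a lysozyme shared with macrophages, was the single rise (0.62), and was lost without replicate b at 6-9 weeks (adjusted p = 0.0631).

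Of the interferon-induced genes that changed, most fell. Of 38 tested, 18 fell, 4 rose and 16 were not called, with a median of −0.46. Tapbp, which loads peptides on MHC class I, gave 2470 and 2193 at 6-9 weeks and 1023 on each array at 24-28 weeks (−1.16, SE 0.11, adjusted p = 3.14e-05). Irf7, the factor that amplifies interferon production, gave 1500 and 1552 against 797 and 881 (−0.84, SE 0.11, adjusted p = 0.000234). Both dropped without overlap. Lgals3bp, a secreted lectin-binding protein, fell by 0.92 and the GTPase Igtp by 0.74. The members that rose were Psmb9, a subunit of the immunoproteasome (0.85), Ifi27 (0.81), and, named after their values were seen, the ubiquitin-like Isg15 (0.58) and the antiviral enzyme Rsad2 (0.49), the last lost without replicate b at 6-9 weeks (adjusted p = 0.0675) or at 24-28 weeks (0.0678). Isg15 and Rsad2 were highest in the youngest females, with 7754 and 7442 for Isg15 at 3-4 weeks against 3830 and 3787 at 6-9 weeks and 5477 and 5910 at 24-28 weeks.

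Some genes of the supporting tissue fell. Of 40 stroma and matrix genes tested, 14 fell, 0 rose and 26 were not called, with a median of −0.54, and 8 fell without replicate b at 6-9 weeks. Eln, elastin, gave 851 and 819 at 6-9 weeks and 131 and 222 at 24-28 weeks (−2.09, SE 0.21, adjusted p = 4.16e-05). Bgn, the matrix proteoglycan biglycan, gave 2269 and 2495 against 1125 and 1166 (−1.03, SE 0.1, adjusted p = 3.53e-05). The matrix genes were thus lower on both older arrays. Igfbp3, which binds insulin-like growth factors, fell by 1.98, Col4a1, a collagen of basement membranes, by 1.26, Timp3, an inhibitor of matrix proteases, by 0.96, and Sparc, a collagen-binding protein, by 0.75. The second, dimmer probe set of Igfbp3 gave −0.28 and was not called (adjusted p = 0.509).

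Of 18 endothelial genes, 5 fell and 0 rose, with a median of −0.51. They were Eng, endoglin (−0.95), Stab1, a scavenger receptor of sinus endothelium (−1.17), Mcam (−0.85), the tight junction gene Cldn5 (−0.37) and the receptor Tie1 (−1.70). Stab1 was lost without replicate a at either age (adjusted p = 0.0614 and 0.0528), Mcam without replicate b at 6-9 weeks (0.0741), Cldn5 without any 1 array (0.0832 to 0.103) and Tie1 without any but replicate b at 24-28 weeks (0.0787 to 0.206). Of 5 tested platelet genes, 2 fell, the receptor chain Gp1bb (−1.35) and the lipoxygenase Alox12 (−1.28), and Alox12 was lost without replicate b at 6-9 weeks (adjusted p = 0.0926) or replicate a at 24-28 weeks (0.0963). Markers of other tissues that could be present gave few calls. Of 11 adipose genes 1 fell, the desaturase Scd1 (−0.92). Of 11 muscle genes 1 fell, desmin, Des (−0.74), a call lost without any 1 array (adjusted p of 0.0632 to 0.143). Of 9 liver genes 1 fell, Hp, which neutrophils also make.

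**Figure D4:**
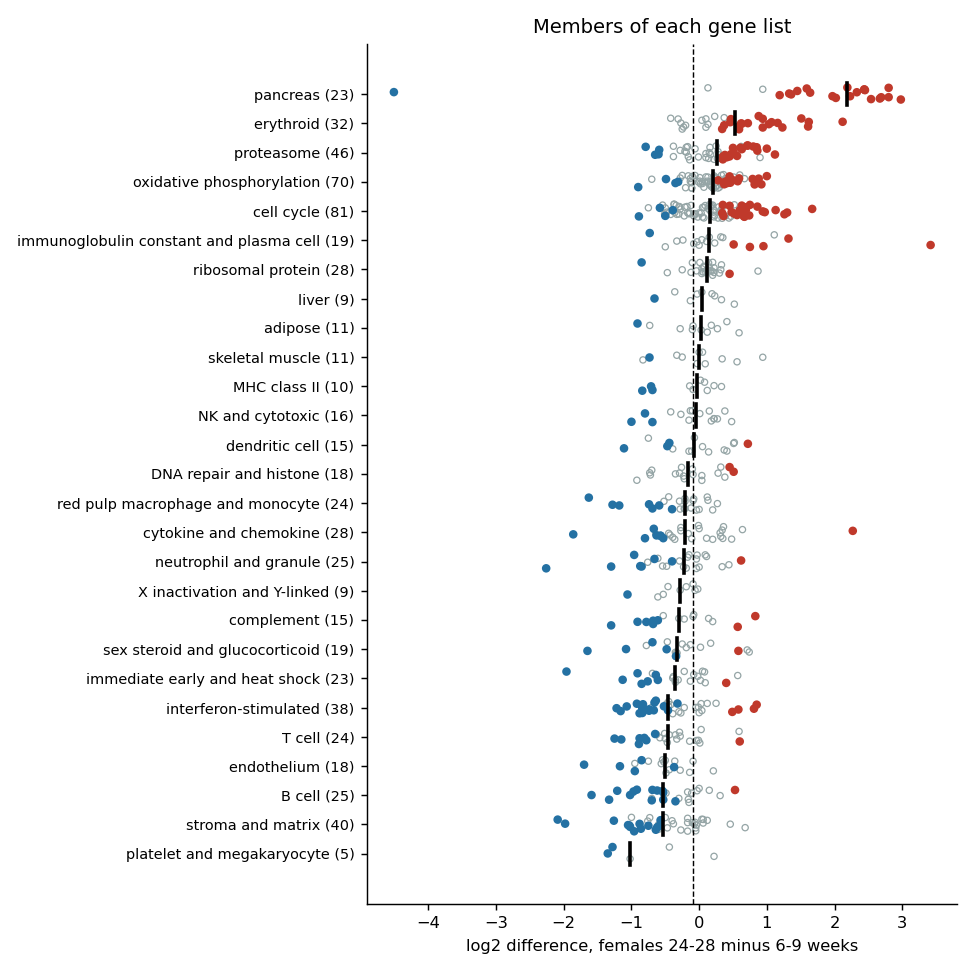
Log2 difference of each tested member of 27 gene lists, with the number tested in brackets, ordered by the list's median (black bars). Filled red points rose, filled blue points fell and open points were not called, and the dashed line is the median of −0.09 over all genes. The pancreas list stands at the top with Cela2a far to its left, and the stroma and B cell lists lie near the bottom.

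The largest falls outside these lists were in genes that were moderate at 6-9 weeks and dim at 24-28 weeks. Mef2c, a transcription factor of B cells and of muscle, gave 847 and 863 at 6-9 weeks and 52.3 and 105 at 24-28 weeks (−3.05, SE 0.38, adjusted p = 0.00022). All 4 of its probe sets fell, by 0.99 to 3.05. Klf2, a factor of lymphocyte quiescence and of endothelium, gave 545 and 417 against 31.6 and 34.2 (−2.97, SE 0.37, adjusted p = 0.000201). At signals near 30, the offset of 32 bounds the measured fall.

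The same pattern held for Ncdn (−2.45), Pea15a (−2.44), Frmd6 (−2.37), Rab11b (−2.28), Egln1 (−2.26), Klf13 (−2.14), C030006K11Rik (−2.13) and Stx2 (−1.99). Rab11b is a GTPase of recycling endosomes, Egln1 the oxygen-sensing hydroxylase of HIF, and Stx2 a membrane fusion protein. Agap2 fell by 2.31, from 453 and 533 to 69 and 77.7, but its call was lost without any 1 of the 4 arrays (adjusted p of 0.0541 to 0.0808).

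Some subunits of the proteasome and of the respiratory chain rose, and most were not called. Of 46 proteasome genes, 18 rose, 4 fell and 24 were not called, with a median of 0.26. Psmd14, the deubiquitinase of the regulatory particle, gave 1362 and 1324 at 6-9 weeks and 2850 and 3050 at 24-28 weeks (1.12, SE 0.1, adjusted p = 2.41e-05). The core subunits Psma6 (0.86), Psma7 (0.80) and Psma4 (0.71) and the ATPase Psmc6 (0.63) rose by less. The members that fell, named after their values were seen, were Psmd3 (−0.79), a lid subunit, the assembly chaperone Psmg2 (−0.65), the activator Psme4 (−0.60) and Psme3ip1 (−0.59), which is not a subunit. Of these 4, Psmg2 was lost without replicate b at 6-9 weeks (adjusted p = 0.137) or replicate a at 24-28 weeks (0.113), and Psme4 and Psme3ip1 without any 1 array (0.057 to 0.158 and 0.0515 to 0.108).

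Of 70 oxidative phosphorylation genes, 17 rose, 4 fell and 49 were not called, with a median of 0.21. This count depended on the scaling, at 10 with quantile normalization and 28 with median centring, and on single arrays, at 10 and 11 without replicate a or b at 6-9 weeks and 11 and 9 without replicate a or b at 24-28 weeks. Among those with the smallest p-values were the complex I subunits Ndufb9 (0.92), Ndufc1 (0.88), Ndufb8 (1.0) and Ndufb2 (0.57), Uqcr11 of complex III (0.82) and Atp5e of the ATP synthase (0.79). Ndufb9 gave 2186 and 2006 at 6-9 weeks and 3939 and 4067 at 24-28 weeks, without overlap. The 4 that fell, named after their values were seen, were Sdha of complex II (−0.90), the complex I subunits Ndufa2 (−0.31) and Ndufs3 (−0.35), and Atp5d of the ATP synthase (−0.49), and 0 or 1 fell when any 1 array was left out. Of 28 ribosomal protein genes, Rpl13a rose (0.45) and Rpl22 fell (−0.85), with a median of 0.11 and no other call. Both calls were lost without replicate a at 6-9 weeks (adjusted p = 0.0599 and 0.0516), and Rpl13a also without replicate a at 24-28 weeks (0.057).

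Immediate early and heat shock genes fell in 7 of 23, and 1 rose, with a median of −0.35. Jund, a subunit of the AP-1 transcription factor, gave 9084 and 8622 at 6-9 weeks and 1981 and 2568 at 24-28 weeks (−1.96, SE 0.15, adjusted p = 5.19e-06). Junb, of the same factor, fell by 0.85 and Zfp36, which destabilises cytokine mRNA, by 0.91. The chaperones Hsph1 (−1.13) and Hspd1 (−0.76) fell while Hspe1, named after its value was seen and the partner of Hspd1 in the mitochondrion, rose by 0.40, a call lost without replicate b at 6-9 weeks (adjusted p = 0.0585) or at 24-28 weeks (adjusted p = 0.0576). The second, dimmer probe set of Hspd1 gave 0.9 and was not called (adjusted p = 0.167), so its probe sets differ in direction. Genes of this list are known to respond to stress, and no cause of their falls was tested. The actin control ratio given above cannot be told apart from the age in these arrays, and its part here was not tested.

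Genes of hormone response, cytokines and complement gave scattered calls. Of 19 sex steroid and glucocorticoid genes, 5 fell and 1 rose, with a median of −0.33, and between 1 and 3 fell when any 1 array was left out. Fkbp5, a glucocorticoid-induced chaperone partner, gave 465 and 542 at 6-9 weeks and 182 and 103 at 24-28 weeks (−1.65, SE 0.25, adjusted p = 0.00068). Igfbp4 (−1.08), Ncoa3 (−0.69), Sgk1 (−0.48) and Fkbp4 (−0.34) also fell, and Hsd11b1, which regenerates active glucocorticoid, rose by 0.58. The other probe sets of Igfbp4 gave −0.02 and 0.23 and were not called (adjusted p = 0.976 and 0.775). Igfbp4 was lost without replicate a at 6-9 or 24-28 weeks (adjusted p = 0.067 and 0.061), Ncoa3 and Sgk1 without any 1 array (0.0712 to 0.234 and 0.0652 to 0.171) and Fkbp4 without any but replicate a at 24-28 weeks (0.0643 to 0.144).

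Of 28 cytokine and chemokine genes, 7 fell and 1 rose, with a median of −0.22, and 4 fell without replicate a at 6-9 weeks and 3 without replicate a at 24-28 weeks. Tgfb1, an immune-suppressive cytokine, gave 943 and 957 against 231 and 245 (−1.86, SE 0.19, adjusted p = 4.95e-05). The follicle chemokine Cxcl13 fell by 0.57 and Cxcl12, which retains cells in the marrow and red pulp, by 0.63. Cxcl13 was lost without replicate a at 6-9 weeks (adjusted p = 0.0838) or replicate b at 24-28 weeks (0.052), and Cxcl12 without replicate b at 6-9 weeks (0.0615) or replicate a at 24-28 weeks (0.0589). Ccl8, a monocyte chemokine, rose by 2.27, from 18.5 and 33.9 to 204 and 296, and was lost without replicate a at 6-9 weeks (adjusted p = 0.0546) or replicate b at 24-28 weeks (adjusted p = 0.0597). Of 15 complement genes, 6 fell, among them the integrin chain Itgb2 (−0.78) and properdin, Cfp (−0.68), and the regulators Cd59a (0.83) and Cr1l (0.57) rose, with a median of −0.30. The second probe set of Cr1l gave −0.01 and was not called (adjusted p = 0.981), so its probe sets disagree. Without replicate b at 6-9 weeks 2 of the complement genes fell, and without either array at 24-28 weeks 3 fell, Cfp not among them without replicate a (adjusted p = 0.0556). Of 9 X inactivation and Y-linked genes 1 fell, the X-linked helicase Ddx3x (−1.07).

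The same age difference was measured in males, and the difference between the sexes was tested as an interaction. Over all probe sets, 1513 (17%) differed between the sexes in their age difference, 790 (8.85%) with the female value above the male one and 723 (8.1%) below it. In males 3923 probe sets (44%) changed between the ages, against 1981 in females. Of all probe sets, 1401 (15.7%) were higher and 2522 (28.3%) lower in males at 24-28 weeks, with a median of −0.25, and the male counts below are read beside these shares. Of the 746 that rose in females, 469 also rose in males and 109 fell there, and of the 1235 that fell, 916 also fell in males and 41 rose. The male arrays differed more than the female ones in the actin control ratio, with 0.376 and 0.333 at 6-9 weeks and 2.62 and 2.39 at 24-28 weeks, and its part was not tested.

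The age difference of most pancreas genes differed between the sexes. The interaction was called for 20 of 23, 19 with the female difference above the male one and, for Cela2a, below it. In males the median difference of the list was 0.11, with 5 rises and 8 falls of 23, beside the 15.7% and 28.3% over all probe sets. Clps gave 11388 and 8144 in males at 6-9 weeks and 10096 and 10666 at 24-28 weeks, which overlapped, so that the interaction was 2.70 (SE 0.2, adjusted p = 3.91e-06). Rnase1 fell in males, from 2252 and 1268 to 544 and 510, for an interaction of 4.32 (SE 0.29, adjusted p = 1.82e-06). Pnliprp1 had an interaction of 3.30. The male levels at 6-9 weeks lay above the female ones of that age for these 3 genes.

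Light chain variable segments named for the size of their interaction rose in females and fell in males. Of 20 tested immunoglobulin variable genes, a list added after values were seen, 15 rose, 1 fell and 4 were not called in females (median 1.15), against 1 higher and 18 lower in males (median −1.52). The interaction was called above 0 for 18 of them and below 0 for 1. Igkv8-30 gave 2223 and 2779 in males at 6-9 weeks and 1270 and 1236 at 24-28 weeks, against its rise in females, for an interaction of 4.22 (SE 0.17, adjusted p = 5.13e-08). Igkv14-111, Igkv8-19 and Igkv4-68 rose in females by 1.16, 1.43 and 1.64 and fell in males by 2.19, 1.76 and 1.11. Ighg3 rose in both sexes, by 1.89 in males, with an interaction of 1.53 (SE 0.14, adjusted p = 2.05e-05). Its 2 male arrays at 24-28 weeks, at 4302 and 4197, lay below the female ones.

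Neutrophil granule genes took the opposite course. In males 18 of 25 rose and 1 fell, with a median of 1.72, and 16 of the interactions were called below 0 and 1 above. Ngp rose from 853 and 951 to 4284 and 4475 in males, for an interaction of −4.50 (SE 0.16, adjusted p = 5.13e-08). Elane went from 664 and 589 to 7943 and 8239 in males, for −3.81 (SE 0.17, adjusted p = 1.11e-07). Prtn3 (−4.70), Wfdc21 (−4.39) and Ltf (−3.64) had interactions of like size, and Wfdc21, a whey acidic protein domain gene on no list, was not called in females (−0.23, adjusted p = 0.214).

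More erythroid and cell cycle genes were called higher in males than in females. In males 29 of 32 erythroid genes rose (median 1.70) and 57 of 81 cell cycle genes (median 0.92), against 20 and 22 in females. The interaction was called below 0 for 22 erythroid and 49 cell cycle genes, and above 0 for 0 and 1. Rhd rose by 2.97 in males against 1.16, with an interaction of −1.81 (SE 0.14, adjusted p = 4.08e-06). Epb42 rose by 2.53 and 2.12, a difference that was not called (−0.40, SE 0.22, adjusted p = 0.256). B and T cell genes had medians of −1.21 and −1.31 in males against −0.53 and −0.46 in females. Interactions called above 0 numbered 12 of 25 and 10 of 24, and those called below 0 numbered 1 and 0. For Cd79a the interaction was 1.05 (SE 0.19, adjusted p = 0.00249), and for Cd37 it was not called (0.34, SE 0.16, adjusted p = 0.18).

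**Figure D5:**
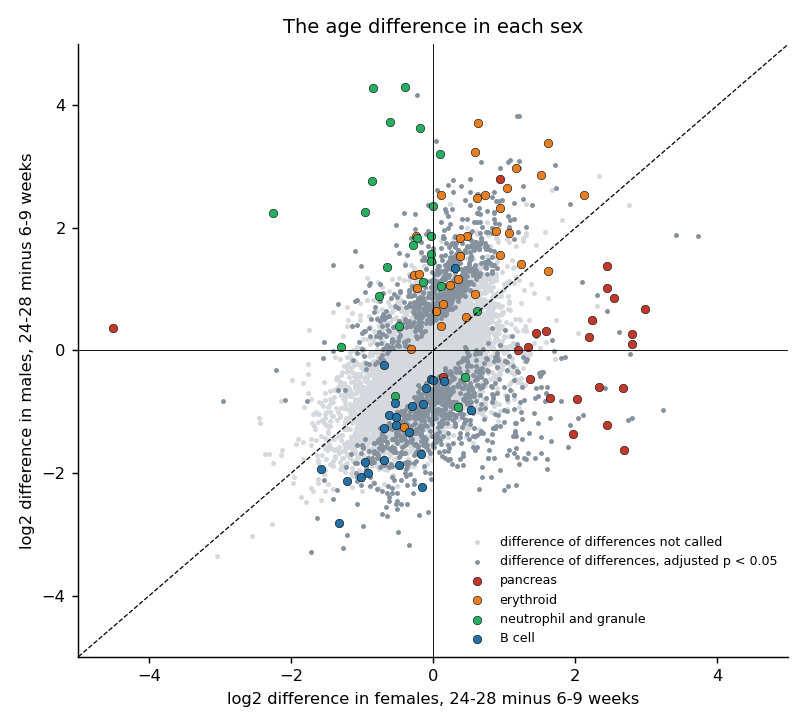
Log2 difference between 24-28 and 6-9 weeks in females (horizontal) against that in males (vertical) for 8926 probe sets, dark where the difference of the differences had an adjusted p under 0.05, with members of 4 gene lists coloured. The dashed line marks equal differences. Most pancreas genes lie to the right below the line, erythroid genes mostly above it and neutrophil genes at the top near 0 on the female axis.

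The 24-28 week level was also set against the youngest females. Shares over all probe sets in that comparison were 6.58% higher and 9.3% lower. Both comparisons share the 24-28 week arrays, which by itself favours agreement in direction. Of the 746 probe sets above the 6-9 week level, 330 were also above the 3-4 week level, 56 were below it and 360 were not called against it. Of the 1235 below the 6-9 week level, 504 were also below the 3-4 week level, 1 was above it and 730 were not called. Pancreas genes belonged with the first group, with 19 of 23 above the 3-4 week level (median 1.51), as did Ighg3, which gave 540 and 477 at 3-4 weeks (4.41, SE 0.1, adjusted p = 1.56e-10). Of 24 T cell genes, 2 were above the 3-4 week level and 0 below it, with a median of −0.04. Eln (−2.29) and Klf2 (−2.69) were below both younger ages.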

How the data were processed

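The deposited intensity values are linear MAS5 signals, computed by the authors with MAS5 per the submitters' processing notes; for its version and settings nothing is given in the sources used. Detection calls were not used. Each array was rescaled to a mean of 500 after trimming 2% at each end, 32 was added and log2 taken. Of 12422 non-control probe sets, the 8926 that reached 100 on at least 2 of 12 arrays were tested with limma 3.58.1 in R 4.3.3 (6 group means on 12 arrays, intensity trend, 6 residual and 5.43 prior degrees of freedom). P-values were adjusted by Benjamini and Hochberg, with a threshold of 0.05. Only probe sets with 1 symbol in the platform annotation were named. Those ending in _s_at, _f_at, _r_at, _i_at or _g_at can match related transcripts. The number of arrays limits precision.

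Genes named were the 15 largest rises and 15 largest falls whose arrays did not overlap, up to 6 with the smallest p in each of 27 lists, 10 for the interaction, and fixed markers; others are said to be chosen after their values were seen. The members and lists were chosen with earlier results of these data known. Letters a and b were not treated as pairs. Deviations of a from b correlated at −0.022 between the ages, which cannot show whether the letters mark a pairing. The fit was tested on simulated data.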

Additional observations from a re-analysis of the deposited data

Results flagged for a closer look

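Of the 163 genes named, 88 had an age difference in females that differed from that in males by the interaction term of the limma fit (adjusted p under 0.05), 45 upward and 43 downward. Over all probe sets the share was 17% (1513 of 8926). Genes were named largely by the size or p-value of their change, and some by the p-value of the interaction itself. Their count is therefore no result about the spleen as a whole. The values below are the female minus the male log2 difference.

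Pancreas and antibody genes gave the largest positive values. They were 4.32 for Rnase1, 3.66 for Sycn, 3.30 for Pnliprp1, 2.92 for Klk1, 2.70 for Clps, 2.55 for Reg2, 2.31 for Ins2, 1.68 for Zg16, 1.42 for Reg3b, 1.28 for Prss2, 1.16 for Cela1 and 1.07 for Reg3a, while Cela2a stood at −4.87. Klk1b1 (3.04) and Tff2 (1.80), on no list, lay with them. For antibody genes the values were 4.22 for Igkv8-30, 3.35 for Igkv14-111, 3.19 for Igkv8-19, 2.74 for Igkv4-68, 1.53 for Ighg3, 1.45 for Jchain and 1.43 for Igha, and for Irf4 1.94, where the gene fell in both sexes.

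Genes of neutrophil granules, red cells and dividing cells gave negative values. Granule genes stood at −4.70 (Prtn3), −4.50 (Ngp), −3.81 (Elane), −3.64 (Ltf), −3.12 (Camp), −2.02 (Hp) and −1.27 (S100a8). Wfdc21, on no list, stood at −4.39. Erythroid genes stood at −2.44 (Gata1), −2.12 (Klf1), −1.81 (Rhd), −1.76 (Hemgn) and −1.35 (Urod), and the platelet gene Gp1bb at −2.11. Cell cycle genes stood at −2.04 (Birc5), −1.99 (Rrm1), −1.48 (Mad2l1), −1.44 (Gmnn), −1.38 (Cdk1), −1.28 (Mki67), −1.19 (Top2a), −1.02 (Prim1), −0.76 (Bub3), −0.66 (Dnmt1) and −0.64 (Plk1). The histone gene H2az1 stood at −1.16.

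Lymphoid and antigen-presenting cell genes were positive, since they fell more in males or rose in females. The values were 2.48 for Cd3e, 2.05 for Cd8a, 0.96 for Thy1 and 0.77 for Cd3d, and 1.52 for Cd83, 1.09 for Pou2af1, 1.05 for Cd79a and 0.86 for Spib. They were 1.46 for Ccl5, 0.78 for Gzma, 1.23 for Itgax, 1.20 for Cd86, 0.99 for Irf8, 1.17 for Cd74 and 0.90 for H2-Oa, with 1.03 for the chemokine Cxcl13.

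The remaining values were smaller or mixed. Oxidative phosphorylation gave −1.56 (Ndufc1), −1.15 (Ndufb9), −1.11 (Ndufb2) and −0.83 (Atp5d), and proteasome genes −0.77 (Psme3ip1), −0.76 (Psma6), −0.63 (Psma7) and −0.61 (Psmc6). Interferon-stimulated genes gave 1.02 (Psmb9), 0.82 (Lgals3bp), 0.53 (Tapbp) and −1.19 (Isg15). Complement gave 0.72 (Cfp), 0.67 (Itgb2) and −1.07 (Cd59a), stress genes −1.35 (Hspe1) and −0.97 (Hsph1), and steroid response genes 0.87 (Sgk1) and −0.82 (Fkbp4). Single genes were Eln (−1.28), Klf2 (−2.14), Rpl13a (−1.18) and Scd1 (0.84).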

How the results depend on the processing

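Of the probe sets called, 0 were called in the opposite direction under any alternative run. With median centring the median over all probe sets changed sign, from −0.07 to 0.06 between 24-28 and 6-9 weeks, from −0.08 to 0.02 against 3-4 weeks and from 0.12 to −0.1 for the interaction. Calls between 24-28 and 6-9 weeks numbered 1803 with quantile normalization, 1854 with median centring (57.9% of them higher, against 37.7%) and 1162 to 1425 when any 1 array was left out. Those against 3-4 weeks numbered 837 to 958 and those of the interaction 1068 to 1360 with 1 array left out. With median centring the interaction gave 448 higher and 1109 lower, against 790 and 723, and the comparison with 3-4 weeks 741 and 497, against 587 and 830. Letters a and b were not treated as pairs in the main fit. With the replicate block 1931 probe sets were called, 1879 of them shared with the 1981. Pancreas genes that rose numbered 13 without suffixed probe sets, where fewer are tested, and oxidative phosphorylation genes that rose 10 with quantile normalization, 28 with median centring and 11 with no intensity trend; the cause was not tested. With 1 array left out, rises numbered 9 to 11 for oxidative phosphorylation, 13 to 18 for erythroid and 14 to 18 for cell cycle genes, and falls 8 to 11 for B cell, 4 to 6 for T cell and 8 to 11 for stroma genes. Medians of 4 lists near 0 changed sign under a scaling or filter: MHC class II, NK, dendritic cell and adipose. Of the named and listed genes tested under the alternatives, 159 were called, 108 of them under all, and 50 lost their call without 1 array. Under settings that kept all 4 arrays, 28 of the called genes lost their call. Among them Hspe1 (adjusted p = 0.181), H2az1 (0.161) and Rpl13a (0.146) were lost with quantile normalization, and Bub3 (0.119) with median centring. The 2 arrays a group limit the calls, and signals near 32 limit the size of falls.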

Other observations

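Rises and falls were spread unevenly over brightness. With the probe sets tested divided by mean signal into 4 bins of like size, 39 rose and 100 fell in the dimmest bin between 6-9 and 24-28 weeks, and 481 rose and 444 fell in the brightest. The bins between gave 63 rises and 256 falls, and 163 rises and 435 falls.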
